A study of Mus musculus with 24 samples.

Results

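B16-D-733 is a second-generation dormant melanoma line, and it was compared here with B16-D, the first-generation dormant line of the same model. The question was which genes differed in RNA level after cells of the dormant line had gone through a mouse and dormancy a second time. All 4 arrays of each line were found by their titles, so that 8 of the 24 arrays of the series entered this comparison. One B16-D array, replicate 2, stood apart from the rest, and each result is given first without it (4 arrays against 3) and then with it. The parental line B16-M (3 arrays) and the sister lines B16-D-735 and B16-D-739 (3 arrays each) were in the same fit and so shared its estimate of the spread between arrays, while the 7 leukemia arrays were not used.

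B16-F1 is a pigmented mouse melanoma line, and all the melanoma lines of the series carry GFP. The parental cells are B16-M. B16-D cells were isolated after about a year from syngeneic mice in which immunotherapy held the tumor cells in check, and the second-generation lines were taken from the brain site. The labels do not say which of the second-generation lines described in the methods is B16-D-733. The title of 1 B16-D-733 array repeats the number of another, and that array is called replicate 3 here. These arrays, replicates 1 and 3, lay on the same slide and had the highest correlation of any pair of the 8 (0.995), next to 0.994 between replicate 1 and the B16-D array of that slide. If they hold 1 sample, n is 3, and leaving out replicate 1 or 3 gave 86 or 89 genes called in place of the 115 below. All lines were amplified in vitro and grown in DMEM with 10% FBS before RNA extraction, with no treatment in culture, so the RNA is that of cultured cells and not of cells at rest in the animal. Nothing says that the arrays of a line came from separate cultures, so p-values measure only the spread between these arrays, which may be technical. In tumor dormancy, residual cancer cells persist for long periods without forming a growing mass, held by arrest of the cell cycle, by immune control or by signals of the tissue around them. Genes commonly linked to that state include ligands of receptor tyrosine kinases such as Gas6, matrix components that engage integrins, interferon-induced genes and checkpoint molecules.

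Array quality and cell identity were examined first. Between 50.9% and 55.8% of the spots of the B16-D-733 arrays and between 46.0% and 55.2% of those of B16-D replicates 0, 1 and 3 were well above background, against 90.3% for B16-D replicate 2. All 10 pigment cell markers (among them Mitf, Tyr, Pmel and Mlana) were well above background on every array of both lines, with a summed level of 10.59 to 10.72 in B16-D-733 and 10.54 to 10.79 in B16-D, as log2 signal minus the 75th percentile of the array, which is the scale of every level below. Since the second-generation cells came from brain, markers of other cell types were read in the same way. Of 6 neuronal markers, 5 (Rbfox3, Syt1, Slc17a7, Gad1 and Stmn2) were not well above background on any array of either line other than B16-D replicate 2, as were Slc1a2 and Slc1a3 of 6 astrocyte markers, Olig1 and Olig2 of 6 oligodendrocyte markers and Ptprc, P2ry12, Aif1 and Adgre1 of 8 microglia and macrophage markers. Other members of these lists were well above background on every array of both lines, namely Gfap, Aldh1l1, Gja1, Snap25, Mog, Cnp, Csf1r and Itgam. The summed level of the astrocyte list was 1.92 to 2.87 in B16-D-733 and 1.88 to 2.90 in B16-D, and the ranges of the lines overlapped for each of the 10 marker sets. No marker of the 9 sets for other cell types passed the test between the lines. The sets do not hold every gene known from such cells, and 2 called genes outside them were picked after their values were seen. Mbp, which encodes myelin basic protein, was higher in B16-D-733 by 2.12 (SE 0.37, adjusted p = 0.0214, and 0.0117 with B16-D replicate 2). It passed in 1 of 7 fits without 1 array. Lck, a kinase known from T cells, was higher by 0.79 (SE 0.13, adjusted p = 0.0104). The 5 tested fibroblast and pericyte markers had the highest median among sets with more than 1 tested gene, 0.88, with Pdgfrb at 0.93 (SE 0.28, adjusted p = 0.466). Col1a1 and Dcn, which were not well above background on any B16-D array, did not pass either (adjusted p = 0.924 for both). The other tested members went the other way, Pdgfra at -0.27 and Col1a2 with means of -1.212 in B16-D-733 and -1.035 in B16-D. The summed level of that set was -0.54 to -0.09 in B16-D-733 and -0.81 to -0.38 in B16-D, and its part in the matrix genes below was not tested.

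Few genes separated the lines, and most of them were higher in B16-D-733. Of 24316 genes tested, 115 (0.473%) passed an adjusted p of 0.05, 99 of them (0.407%) higher and 16 (0.0658%) lower in B16-D-733. The 4 arrays of B16-D-733 lay beyond the 3 arrays of B16-D for all 115, as they did for 4.38% of all genes tested (above in 2.8% and below in 1.58%). For 74 of the 99 risen genes at least 1 B16-D array was well above background. Their log2 fold changes ran from 0.55 to 4.16 about a median of 1.43, with 59 above 1, 19 above 2 and 7 above 3, while the median over all genes tested was 0.03. For the other 25 no B16-D array was well above background, and in 19 of these all B16-D-733 arrays were. Only a bound can be given for them, which was 1.05-fold to 12-fold for 22 genes with a median of 1.86-fold, and for 3 genes there was none. Of the 74 genes, 53 were well above background on all 3 B16-D arrays. Among the 16 fallen genes, 6 were not well above background on any B16-D-733 array.

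**Figure D1:**
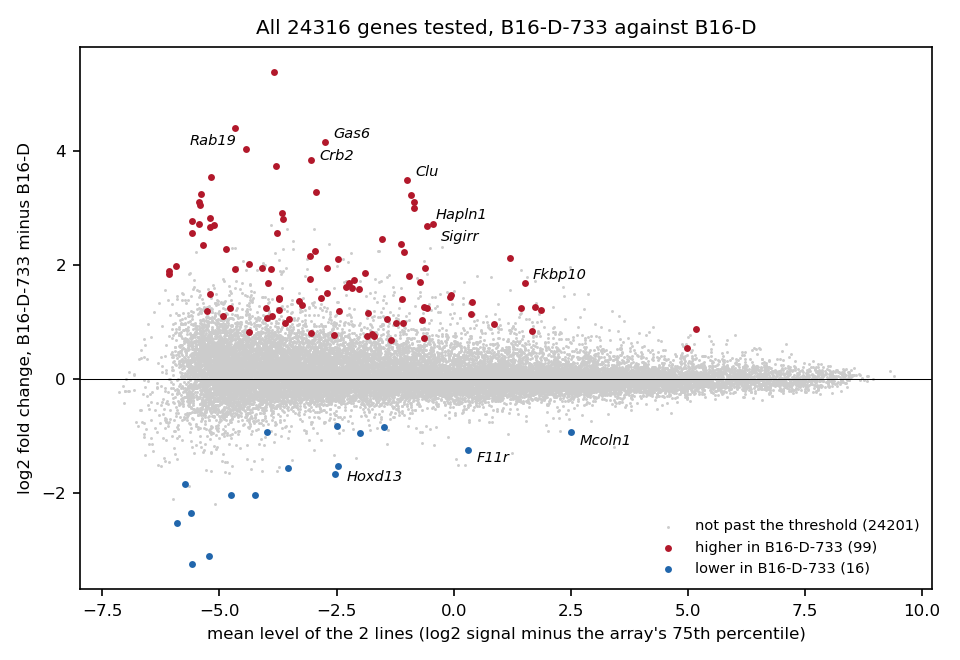
Log2 fold change between B16-D-733 and B16-D (vertical axis) against the mean level of both lines (horizontal axis, log2 signal minus the 75th percentile of the array) for the 24316 genes tested, each point 1 gene. The 99 risen genes (red) and 16 fallen genes (blue) lie mainly at low to middle levels, and at the left edge, where 1 line is not above background, the fitted values (up to 5.40 and down to -3.26) are not measured folds.

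With B16-D replicate 2 included, 88 of 25045 genes (0.351%) passed, 73 higher and 15 lower, and 71 of them were among the 115. Of the risen genes 58 passed again and 98 kept their direction, and of the fallen genes 13 passed again and all 16 kept it. That fit reuses the arrays on which the genes were chosen. The direction was thus largely fixed in advance, and these counts are no independent check. On that array 32 of the 99 risen genes read as high as the lowest B16-D-733 array or higher. None of the 16 fallen genes read as low there as the highest B16-D-733 array. The arrays lay on 3 slides, each scanned once, with both lines on slides 1 and 3 and, once replicate 2 is left out, B16-D-733 alone on slide 2. Since the arrays of the called genes did not overlap, the sign of each difference within slides 1 and 3 was fixed by the choice of genes. On slide 2 the only B16-D array is replicate 2, which did not enter the choice, whereas the B16-D-733 array there did. There 72 of 99 risen genes were higher and 16 of 16 fallen genes lower in B16-D-733. These counts are therefore not independent of the choice, and the share over all genes tested was not computed. Most but not all pairs of arrays of different lines on the same slide deviated together (correlations of deviations 0.05, 0.67, 0.57 and 0.55). The pair at 0.05 was B16-D replicate 0 and B16-D-733 replicate 2. With slide as a block 110 genes passed, 95 of them among the 115. With the arrays of dated titles alone 100 genes passed, 92 higher and 8 lower, and 77 of them were among the 115. Of the named genes 8 lost their call there, among them Hapln1 (adjusted p = 0.265) and Gstk1 (adjusted p = 0.166).

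Among named genes measured in both lines the largest fitted rise without B16-D replicate 2 was that of Gas6, a vitamin K-dependent secreted ligand of the receptor tyrosine kinases Tyro3, Axl and Mertk. Its levels were -0.52, -0.82, -0.69 and -0.64 on the B16-D-733 arrays and -5.48, -4.69 and -4.31 on the B16-D arrays. The lines were far apart, with a log2 fold change of 4.16 (SE 0.41, adjusted p = 0.000167), although only 2 of the 3 B16-D arrays were well above background. B16-D replicate 2 read -1.11, close to B16-D-733, and with it the change was 3.23, below those of Crb2 (3.67) and Clu (3.36), and no longer passed (adjusted p = 0.111). None of the Gas6 receptors passed the test. Tyro3 differed by 0.52 (SE 0.13, adjusted p = 0.185), Axl by -0.31 (SE 0.51, adjusted p = 0.931) and Mertk by -0.01 (SE 0.45, adjusted p = 0.998). An unnamed transcript had the largest fitted change of all. It was not well above background on any B16-D array, and it was at least 12-fold higher in B16-D-733 (adjusted p = 1.09e-07).

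The sequences before the start sites of a few risen genes are shown. Gas6 and Crb2 were well above background on 2 and 1 of the 3 B16-D arrays, Cd72 and Batf were so on all arrays and passed under all 23 settings, and Rab19, Oas1g and Gbp7 carry an interferon-type element. They are the 250 bases before the annotated start in RefSeq on GRCm38.p6, read 5′ to 3′ in the direction of the gene. They lie at chr8:13494536-13494785 on the minus strand, chr2:37775999-37776248 on the plus strand, chr4:43454627-43454876 on the minus strand, chr12:85686470-85686719 on the plus strand, chr6:39381103-39381352 on the plus strand, chr5:120887614-120887863 on the minus strand and chr3:142530086-142530335 on the plus strand, in the order in which they are printed. Capitals mark exact matches, on either strand, to 7 motifs: an AP-1 site (TGANTCA), the E-box CACGTG, the M-box CATGTG, the GC box GGGCGG, the CCAAT box, the TATA box TATAAA and an interferon-type element (TTTC, any 2 bases, TTTC).
Gas6: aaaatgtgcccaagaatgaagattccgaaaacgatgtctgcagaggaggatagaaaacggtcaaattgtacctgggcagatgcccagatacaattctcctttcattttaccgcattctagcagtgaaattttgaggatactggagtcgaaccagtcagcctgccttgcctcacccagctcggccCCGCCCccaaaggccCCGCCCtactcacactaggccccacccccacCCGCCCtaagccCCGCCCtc
Crb2: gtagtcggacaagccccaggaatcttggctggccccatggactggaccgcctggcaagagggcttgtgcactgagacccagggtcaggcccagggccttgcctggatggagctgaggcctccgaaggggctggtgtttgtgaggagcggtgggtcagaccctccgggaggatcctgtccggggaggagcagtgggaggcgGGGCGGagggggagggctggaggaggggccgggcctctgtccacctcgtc
Cd72: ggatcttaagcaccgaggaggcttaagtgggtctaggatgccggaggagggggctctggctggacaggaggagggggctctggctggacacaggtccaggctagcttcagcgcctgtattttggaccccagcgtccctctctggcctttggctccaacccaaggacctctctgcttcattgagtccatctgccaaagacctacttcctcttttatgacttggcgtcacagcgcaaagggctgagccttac
Batf: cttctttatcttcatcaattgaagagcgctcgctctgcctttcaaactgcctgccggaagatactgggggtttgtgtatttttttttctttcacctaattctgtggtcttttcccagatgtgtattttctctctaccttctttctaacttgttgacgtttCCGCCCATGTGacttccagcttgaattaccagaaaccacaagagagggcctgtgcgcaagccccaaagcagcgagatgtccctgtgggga
Rab19: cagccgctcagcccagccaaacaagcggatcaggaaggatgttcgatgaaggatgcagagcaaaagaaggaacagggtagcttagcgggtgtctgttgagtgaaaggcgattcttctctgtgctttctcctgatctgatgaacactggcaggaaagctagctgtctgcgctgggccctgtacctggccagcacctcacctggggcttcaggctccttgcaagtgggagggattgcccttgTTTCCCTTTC
Oas1g: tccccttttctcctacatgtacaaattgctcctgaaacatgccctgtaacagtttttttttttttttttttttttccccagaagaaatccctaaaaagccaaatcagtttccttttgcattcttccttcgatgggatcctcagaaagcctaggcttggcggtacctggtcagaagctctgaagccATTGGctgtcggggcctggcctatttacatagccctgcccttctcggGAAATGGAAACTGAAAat
Gbp7: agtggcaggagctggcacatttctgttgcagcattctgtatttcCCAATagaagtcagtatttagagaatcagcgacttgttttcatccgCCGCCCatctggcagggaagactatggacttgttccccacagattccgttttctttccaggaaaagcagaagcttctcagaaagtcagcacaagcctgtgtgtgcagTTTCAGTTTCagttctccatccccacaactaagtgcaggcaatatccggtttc

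The window of Gas6 held 4 GC boxes and that of Crb2 held 1, whereas Cd72 had no match to any of the 7 motifs. In the window of Batf the M-box overlapped a GC box. Promoter windows were found for 71 of the 99 risen and 11 of the 16 fallen genes. The interferon-type element was in 9 of the 71 (12.7%), namely Rab19, Capn6, Esr1, Gbp7, Spp1, Igf2bp3, Oas1g, Slc13a4 and Mthfd2l, in none of the 11, in 2.98% of all 32851 windows and in 2.62% of the 11276 windows of tested genes. With B16-D replicate 2, 5 of these 9 genes did not pass: Capn6 (adjusted p = 0.123), Esr1 (0.412), Gbp7, Oas1g and Slc13a4 (0.998 each), with Slc13a4 at -0.12. Among genes not well above background on all 3 B16-D arrays the share was 18.8% of 32 risen genes and 3.64% of 1537 tested genes, and among the others it was 7.69% of 39 and 2.45% of 9739. The GC box was in 49.3% of the risen and 55.0% of the tested windows, but in 35.9% and 58.7% for genes well above background on all 3 B16-D arrays and in 65.6% and 31.9% for the others. Without that split the AP-1 site was in 9.86% and 4.52%, the CCAAT box in 33.8% and 36.4%, the TATA box in 12.7% and 7.68%, the E-box in 12.7% and 8.23% and the M-box in 12.7% and 7.97%. The AP-1 site too divided by level, with 2.56% and 4.14% for the brighter genes and 18.8% and 6.96% for the others, as did the M-box, with 20.5% and 7.6% and with 3.12% and 10.3%. Windows of risen genes had a median of 6 CpG dinucleotides, against 15 for tested genes, and the gap was found among genes well above background on all 3 B16-D arrays (7 against 16) but not among the dimmer ones (6 against 5). A match is a string of letters and was not tested as a binding site.

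The named risen genes are taken in turn by the place of their products, secreted and surface proteins first. Clu encodes clusterin, a secreted chaperone. It read 0.54, 0.74, 0.87 and 0.86 in B16-D-733 and -1.65, -3.13 and -3.43 in B16-D, a log2 fold change of 3.49 (SE 0.45, adjusted p = 0.00183), and B16-D replicate 2 at -2.21 lay among the other B16-D arrays. Cd72, an inhibitory receptor known from B cells, was even across the B16-D-733 arrays at 0.67, 0.63, 0.65 and 0.64, with B16-D at -1.48, -2.53 and -3.06 (log2 fold change 3.01, SE 0.31, adjusted p = 0.000268). Its second probe also differed, by 2.87. Sigirr, which dampens signalling of interleukin-1 and Toll-like receptors, stood at 0.80, 0.95, 0.99 and 0.93 against -1.45, -1.92 and -2.04 (2.72, SE 0.19, adjusted p = 9.84e-06). All 3 genes were well above background on every array of both lines, and each passed with B16-D replicate 2 as well.

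Other genes of this kind were below or close to background in B16-D. C1ql3, a secreted C1q-like protein found at synapses, read -1.95, -2.05, -1.91 and -1.77 in B16-D-733 and was at least 7.0-fold higher there (adjusted p = 0.000127). Its second probe was well above background on all 4 B16-D-733 arrays and on none of the B16-D arrays in the fit. With B16-D replicate 2, which read -2.89, C1ql3 still passed (adjusted p = 0.0328). Lpar4, a receptor for lysophosphatidic acid, read between -3.68 and -3.12 and was at least 2.49-fold higher (adjusted p = 6.6e-05). Enpep, the aminopeptidase A of the cell surface, lay between -4.06 and -3.48 (at least 1.94-fold, adjusted p = 3.85e-05), and Ptgfrn, a membrane protein that binds tetraspanins, between -3.97 and -3.42 (at least 1.95-fold, adjusted p = 5.61e-05). The second probe of Enpep was not well above background on any array of the lines. Fstl3, a secreted protein that binds activin, read -0.69, -1.63, -1.39 and -1.49 in B16-D-733 and -3.46, -5.10 and -5.17 in B16-D, where 1 of the 3 arrays was well above background (3.28, SE 0.38, adjusted p = 0.000846). B16-D replicate 2 read above every B16-D-733 array for Lpar4 (-1.61) and Fstl3 (-0.12) and at the level of the highest for Enpep (-3.48), and with it none of these 3 passed (adjusted p = 0.966, 0.88 and 0.302), nor did Ptgfrn (adjusted p = 0.053).

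Crb2, a transmembrane protein of the Crumbs family that sets the polarity of epithelial cells, read -1.07, -1.19, -0.95 and -1.32 in B16-D-733 and -4.73, -5.48 and -4.70 in B16-D, with replicate 2 at -4.30 (log2 fold change 3.84, SE 0.18, adjusted p = 3.09e-07). The remaining named genes encode proteins of the cell interior. Arhgap45, a GTPase-activating protein, read 0.98, 0.45, 0.73 and 0.69 against -2.45, -2.28 and -2.44, with replicate 2 at -2.06 (3.1, SE 0.19, adjusted p = 4.07e-06), and its second probe differed by 2.44. Rab19, a small GTPase, was level across B16-D-733 at -2.49, -2.49, -2.31 and -2.35 and was at least 4.99-fold higher there (adjusted p = 4.35e-06). Fitm1, which takes part in the formation of lipid droplets, was at least 1.91-fold higher (adjusted p = 0.00166), and Phf11d, a protein with a PHD finger, at least 1.56-fold higher (adjusted p = 0.000486). Rab19, Fitm1 and Phf11d also passed with replicate 2. Capn6, a member of the calpain family, read -2.66, -2.03, -2.23 and -2.05 against -6.52, -4.28 and -4.35 (2.81, SE 0.48, adjusted p = 0.0183). Only 2 of the B16-D arrays in the fit were well above background, and without B16-D replicate 0, the lowest, Capn6 differed by 2.08. Its call was lost without B16-D-733 replicate 1, 2 or 3 (adjusted p up to 0.0673), with slide as a block (0.0619) and with B16-D replicate 2 (0.123).

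**Figure D2:**
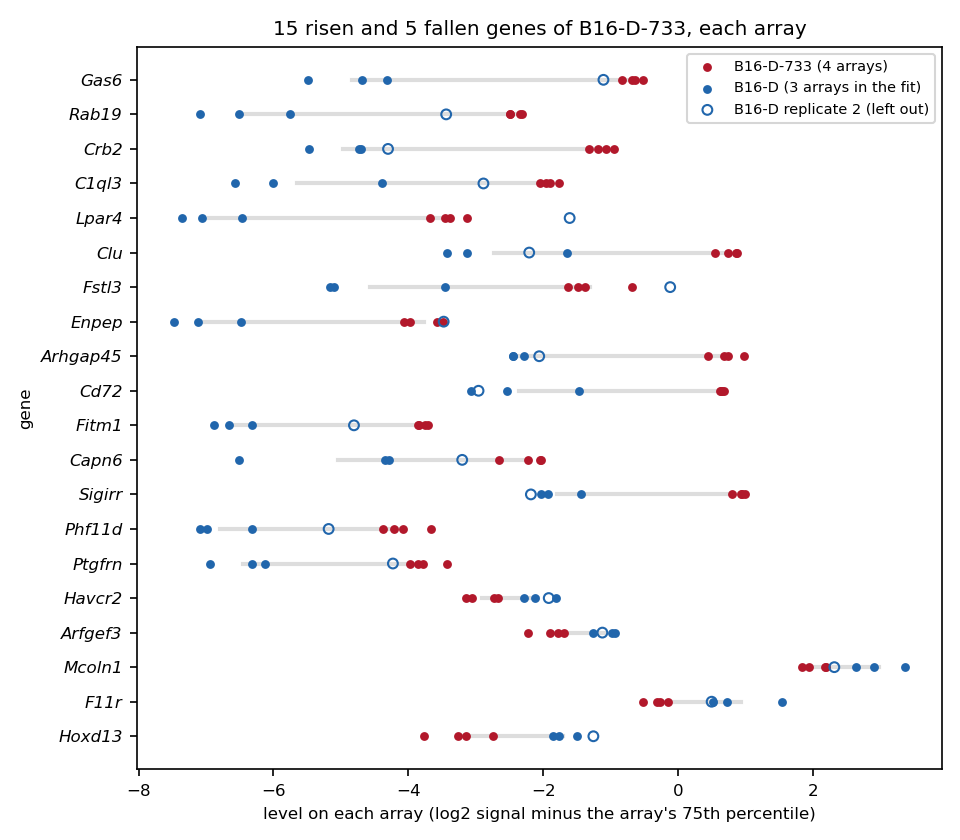
Levels of the 15 risen and 5 fallen genes named by their size of change on each array (horizontal axis, log2 signal minus the 75th percentile of the array). Red points are the 4 B16-D-733 arrays, filled blue points the 3 B16-D arrays of the fit, open circles B16-D replicate 2, and grey bars join the means of the lines. For Lpar4 and Fstl3 the open circle lies above every red point.

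Fallen genes were fewer, and the 5 that met the naming rule had smaller fitted changes than the named risen genes above. Several of those risen genes have only a bound. The bounds of Lpar4 (2.49-fold), Ptgfrn (1.95-fold), Enpep (1.94-fold), Fitm1 (1.91-fold) and Phf11d (1.56-fold) lie below the fall of Hoxd13 (2.88-fold). Hoxd13, a homeobox gene of limb patterning, read -2.75, -3.14, -3.76 and -3.27 in B16-D-733 and -1.50, -1.85 and -1.76 in B16-D, with replicate 2 at -1.26, and fell by 1.53 on the log2 scale (SE 0.21, adjusted p = 0.00396). F11r, the junctional adhesion molecule A of tight junctions, read -0.52, -0.31, -0.14 and -0.27 against 1.54, 0.51 and 0.72 and fell by 1.24 (SE 0.24, adjusted p = 0.0439). Mcoln1, the calcium channel of the lysosome membrane, read 1.84, 1.94, 2.19 and 2.18 against 3.37, 2.91 and 2.64 and fell by 0.94 (SE 0.17, adjusted p = 0.0232). Arfgef3 (log2 fold change -0.84, SE 0.14, adjusted p = 0.0131) and Havcr2, the checkpoint receptor TIM-3 (-0.83, SE 0.16, adjusted p = 0.0439), completed the set. Leaving out single arrays ended several of these calls. F11r passed only without B16-D replicate 1 and Havcr2 only without B16-D-733 replicate 3, with adjusted p up to 0.157 and 0.171 in the other 6 fits. Mcoln1 was lost without replicate 0 or 1 of either line (up to 0.0896) and Arfgef3 without B16-D replicate 0 or 1 (up to 0.0815), whereas Hoxd13 passed in all 7. With B16-D replicate 2 neither Mcoln1 (adjusted p = 0.181) nor F11r (0.0599) passed, and with slide as a block neither F11r (0.115) nor Havcr2 (0.0815).

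The gene with a symbol that had the largest fitted fall, Hspb8, lay outside the rule and was chosen after its values were seen. It encodes a small heat shock protein that works with the autophagy machinery. It read -2.38, -4.79 and -4.71 in B16-D, where 2 of 3 arrays were well above background, and was not well above background on any B16-D-733 array, a fall of at least 1.97-fold (adjusted p = 0.00936). Its mean was -1.68 in B16-M and 0.05 in B16-D-735, and it was not well above background on any B16-D-739 array.

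Of 25 gene lists covering melanoma identity, matrix, dormancy, immune and metabolic functions, 17 had no member past the threshold. Together the lists held 946 tested genes, of which 11 were higher and 1 lower (1.27%, against 0.721% of the 14140 tested genes with a symbol and 0.473% of all genes tested). The lists and their members are given by count and by median, beside the median of 0.03 for all genes tested.

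The extracellular matrix list had the most calls, with 4 of 44 members higher, none lower and a median of 0.14. Hapln1, the link protein that ties hyaluronan to proteoglycans, read 0.55, 0.88, 0.92 and 0.79 in B16-D-733 and -2.74, -1.29 and -1.71 in B16-D (log2 fold change 2.69, SE 0.50, adjusted p = 0.0335). Its second probe differed by 2.72. Fkbp10, a chaperone of procollagen in the endoplasmic reticulum, read 2.81, 2.15, 2.33 and 2.13 against 0.82, 0.76 and 0.45 (1.68, SE 0.22, adjusted p = 0.00218). Spp1, which encodes osteopontin, a secreted ligand of integrins and CD44, read -1.56, -1.22, -1.02 and -1.13 against -2.56, -2.55 and -3.34 (1.58, SE 0.24, adjusted p = 0.00662). Emilin1, a glycoprotein of elastic fibres, read -0.79, -1.10, -0.55 and -1.12 against -1.87, -1.81 and -2.16 (1.06, SE 0.15, adjusted p = 0.00526). All 4 passed with B16-D replicate 2, and 3 of them in each of the 7 fits that left out 1 array. Hapln1 passed only without B16-D replicate 1, with adjusted p up to 0.145 in the other 6. The lowest member, P4ha1, a prolyl hydroxylase of collagen, differed by -0.46 (SE 0.25, adjusted p = 0.924).

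In the interferon and antigen presentation list 2 of 50 members passed, both higher and both at the edge of detection. Oas2, a synthetase of the oligoadenylates that activate RNase L, was not well above background in B16-D and was at least 1.20-fold higher in B16-D-733 (levels of -4.76 to -3.99, adjusted p = 0.0267). Its second probe was not well above background in either line. Gbp7, a guanylate-binding protein, passed (adjusted p = 0.0157) without being well above background on any of the 7 arrays, so no fold is given. B16-D replicate 2 read above all B16-D-733 arrays for both (-3.44 and -2.03), and with it neither passed (adjusted p = 0.998 for both). Without single arrays the call of Oas2 was kept in 2 of 7 fits (adjusted p up to 0.131, and 0.0572 with slide as a block) and that of Gbp7 in 3 of 7 (up to 0.0911). A further set of members was higher at an unadjusted p under 0.05 only, so that 8 of 50 were higher and 0 lower at that level, against 4.38% of all genes tested in either direction. Among them were Oas1a, with a log2 fold change of 0.94 (SE 0.26, adjusted p = 0.304), and Cxcl10, a chemokine that attracts T cells, with 1.01 (SE 0.33, adjusted p = 0.574). The lowest member, Ifit3, differed by -0.46 (SE 0.36, adjusted p = 0.924).

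In 6 further lists 1 member passed. Gas6 was the only call among 31 dormancy regulators, whose median was 0.03. Batf, a transcription factor of the AP-1 family, was the only one of 27 AP-1 and immediate early genes. It read 0.14, 0.36, 0.65 and 0.34 in B16-D-733 and -1.60, -1.50 and -1.63 in B16-D, with replicate 2 at -1.66 (log2 fold change 1.95, SE 0.14, adjusted p = 9.84e-06). Maff, at the other end of that list, differed by -0.89 (SE 0.66, adjusted p = 0.924). Fabp3, which carries fatty acids in the cytosol, passed among 43 genes of cholesterol and fatty acid synthesis, at 0.08, 0.02, 0.11 and -0.01 against -1.93, -2.20 and -2.42 (2.23, SE 0.32, adjusted p = 0.00482). Pfn2, a profilin that binds actin, was 1 of 48 cytoskeletal genes (0.97, SE 0.15, adjusted p = 0.00932), with its call lost without B16-D replicate 1 or 3 (adjusted p up to 0.063). Gstk1, the mitochondrial and peroxisomal glutathione transferase, was 1 of 48 antioxidant genes (1.24, SE 0.23, adjusted p = 0.0275), and its call was lost in each of the 7 fits without 1 array (0.0571 to 0.135), while with B16-D replicate 2 it passed (0.0117). Mcoln1, above, was 1 of 47 lysosome and autophagy genes and the only fallen list member, a call that was lost with B16-D replicate 2.

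**Figure D3:**
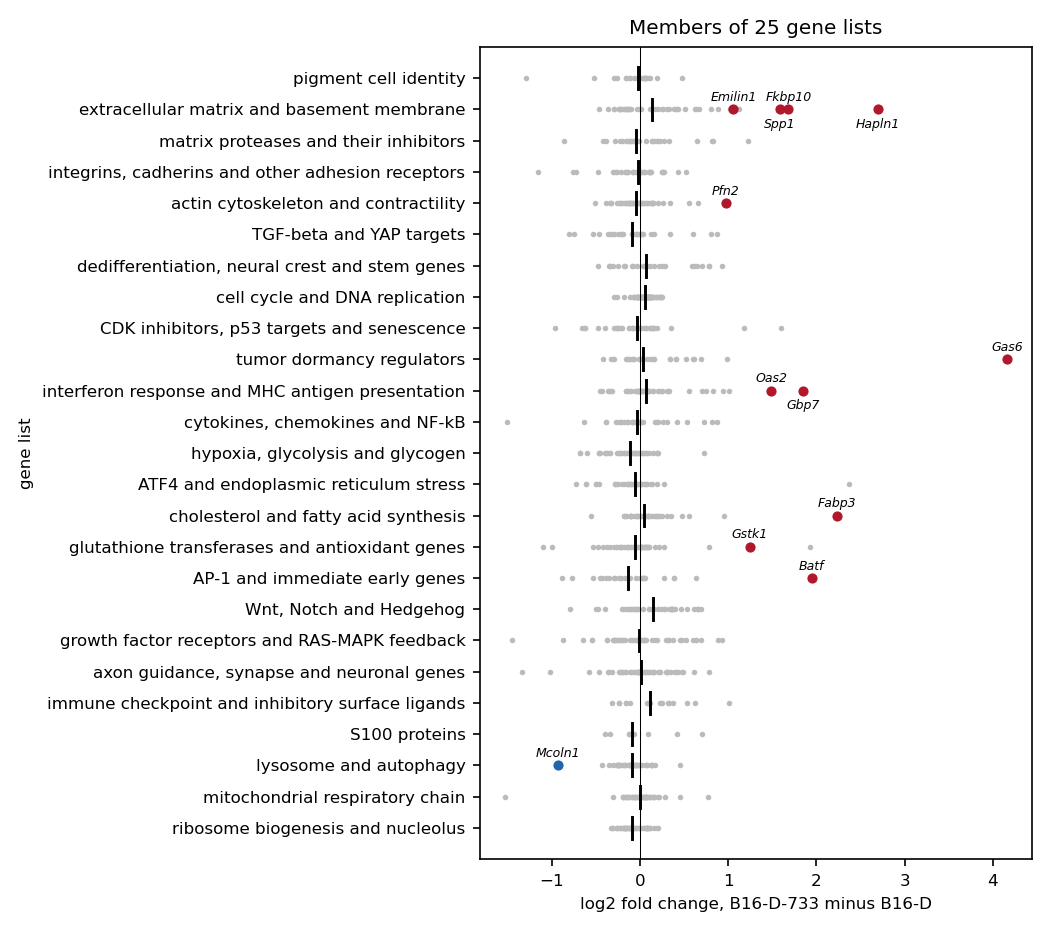
Log2 fold change between B16-D-733 and B16-D (horizontal axis) of the tested members of 25 gene lists (vertical axis). Each point is 1 gene, black bars are list medians, and the named red and blue points are members that passed the test higher or lower. The 12 called members are spread over 8 lists, with 4 in the matrix list.

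Proliferation and pigment genes were close between the lines. Of 69 cell cycle and DNA replication genes, 0 passed by limma and 0 had an unadjusted p under 0.05, and their fold changes lay between -0.30 (Ccnd1, the G1 cyclin D1) and 0.24 (Ttk, a spindle checkpoint kinase) with a median of 0.06. Mki67, a marker of cycling cells, differed by 0.02 (SE 0.20, adjusted p = 0.994). Of 26 pigment cell genes, 0 passed by limma and 1 had an unadjusted p under 0.05, Trpm1, a cation channel of melanocytes, at -1.30 (SE 0.58, adjusted p = 0.924). The highest of that list was Erbb3, at 0.47 (SE 0.57, adjusted p = 0.924). Of 17 checkpoint and inhibitory surface ligands, 37 CDK inhibitors, p53 targets and senescence genes and 56 genes of the respiratory chain 0 passed by limma, with 2, 2 and 1 at an unadjusted p under 0.05. The largest change of a list member that did not pass was that of Vldlr, a lipoprotein receptor in the ATF4 list, at 2.37 (SE 0.52, adjusted p = 0.092).

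For the named genes the parental and sister lines were read beside the 2 dormant lines from the same fit. These contrasts share the B16-D-733 arrays and are given by their own values. Of all genes tested, B16-D-733 differed from B16-M in 5.65% (3.27% higher, 2.38% lower), from B16-D-735 in 8.57% (4.39% higher, 4.18% lower) and from B16-D-739 in 0.247% (0.185% higher, 0.0617% lower). For several genes the mean of B16-D lay between those of B16-M and B16-D-733. Fkbp10 had means of -4.12 in B16-M, 0.68 in B16-D and 2.36 in B16-D-733, with 2.39 in B16-D-739 and -1.75 in B16-D-735. Hapln1 had -7.13, -1.91 and 0.78 in the same order, with 0.11 in B16-D-739 and -6.19 in B16-D-735. Emilin1 had -6.96, -1.95 and -0.89, with -1.12 in B16-D-739 and -0.43 in B16-D-735. B16-D-733 was above B16-M by 6.47 (SE 0.22, adjusted p = 1.63e-09) for Fkbp10. Hapln1 and Emilin1 were not well above background on any B16-M array, so only the test is given (adjusted p = 5.35e-07 and 1.93e-10). Arfgef3 went the other way, from 0.82 in B16-M to -1.06 in B16-D and -1.90 in B16-D-733.

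Gas6 had means of -5.39 in B16-M, -4.83 in B16-D, -0.67 in B16-D-733, -0.63 in B16-D-735 and -5.79 in B16-D-739. B16-D-733 differed from B16-D-735 by -0.04 (adjusted p = 0.99) and was above B16-D-739, where no array was well above background (adjusted p = 3.71e-05). Clu, at 0.76 in B16-D-733 and -2.74 in B16-D, had means of -4.47 in B16-M, -4.0 in B16-D-735 and -3.86 in B16-D-739, and B16-D-733 was above the sister lines by 4.75 and 4.61 (adjusted p = 2.23e-05 and 0.000194). Only 2 arrays each of B16-M and B16-D-735 were well above background for Clu. Sigirr had its highest mean of the 5 lines in B16-D-733, above B16-D-735 by 3.56 and above B16-D-739 by 2.29 (adjusted p = 2.41e-07 and 4.76e-05). Fstl3 was above both sister lines, by 3.16 and 3.74 (adjusted p = 0.000219 and 0.000331), although only 1 B16-D-739 array was well above background. Batf stood at 0.37 in B16-D-733, 0.22 in B16-D-735 and 0.37 in B16-D-739, and Gstk1 at 2.06, 2.11 and 2.08, whereas their means were -1.57 and 0.82 in B16-D and -2.21 and -0.01 in B16-M. B16-D-733 did not pass the test against either sister line for these genes (adjusted p = 0.672 and 1.0 for Batf, 0.967 and 1.0 for Gstk1). Oas2 was higher in B16-D-733 than in B16-D but below B16-M by 1.12 (adjusted p = 0.0278), and B16-D-735 had the highest mean, -2.75. Hoxd13 had its lowest mean in B16-D-733, at -3.23, with -2.37 in B16-M, -2.61 in B16-D-735 and -2.0 in B16-D-739. For this gene B16-D-733 passed against B16-M and B16-D-739 (adjusted p = 0.0336 and 0.0329) but not against B16-D-735 (0.0992).

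**Figure D4:**
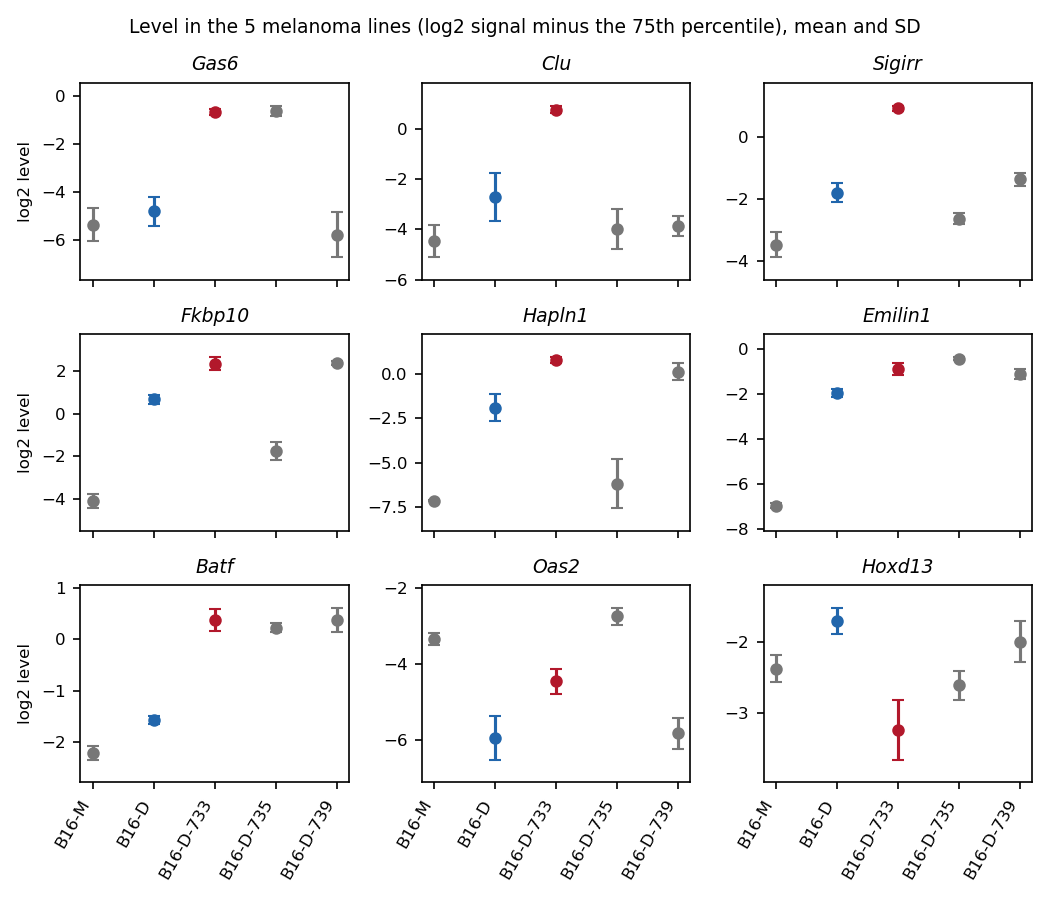
Mean level (points) and SD over arrays (bars) of 9 named genes in the parental line B16-M (3 arrays), B16-D (3 arrays, without replicate 2), B16-D-733 (4) and the sister lines B16-D-735 and B16-D-739 (3 each), as log2 signal minus the 75th percentile. The vertical axes differ between panels. Gas6 is at -0.67 in B16-D-733 and -0.63 in B16-D-735, and at -4.83 or lower in the other 3 lines. No array was well above background for Hapln1 and Emilin1 in B16-M, for Gas6 in B16-D-739 and for Oas2 in B16-D and B16-D-739.

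**Figure D5:**
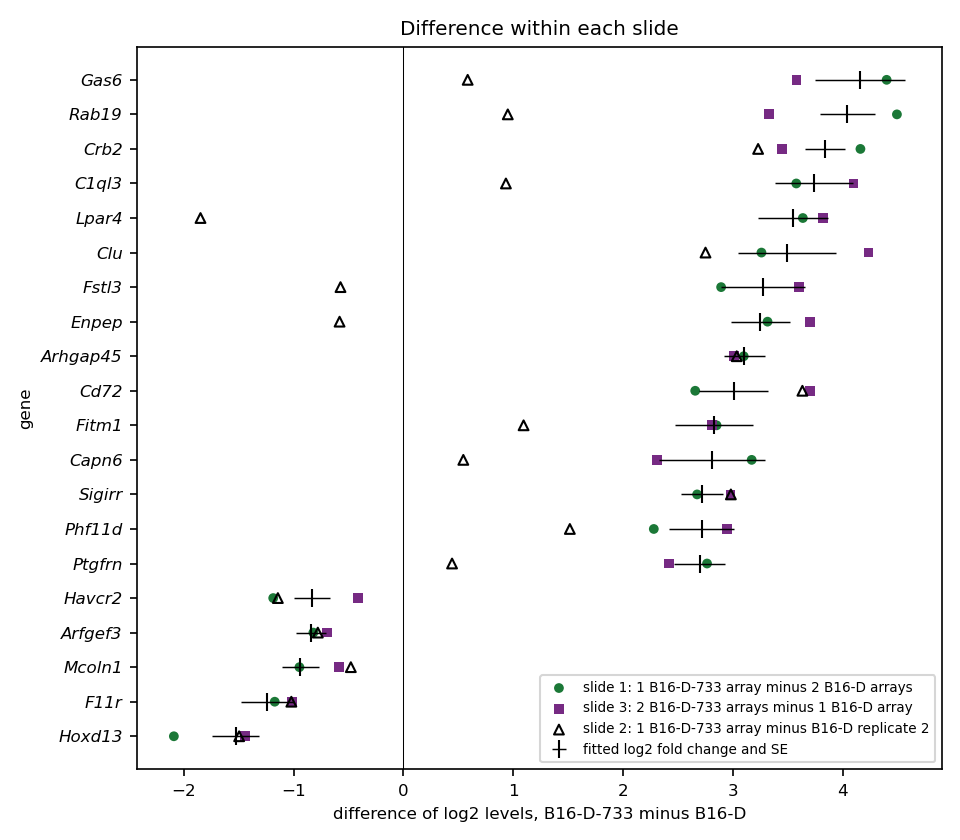
Difference of levels between B16-D-733 and B16-D (horizontal axis, log2 scale) within each slide for the 15 risen and 5 fallen genes, with the fitted log2 fold change and its standard error. The choice of genes fixes the side of 0 for slides 1 and 3, and slide 2, where the B16-D array is replicate 2, lies below 0 for the risen genes Lpar4, Fstl3 and Enpep.

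Some calls outside the naming rule were chosen after their values were seen, because they are well measured and passed under all 23 alternative settings. Igf2bp3, an RNA-binding protein of fetal tissue and tumors, read 1.32, 1.00, 1.01 and 0.96 in B16-D-733 and -0.29, -0.37 and -0.18 in B16-D (log2 fold change 1.35, SE 0.12, adjusted p = 6.34e-05). Gpt, alanine aminotransferase, read 2.35, 2.29, 2.37 and 2.42 against 1.18, 1.15 and 0.95 (1.27, SE 0.12, adjusted p = 0.000129). Pla2g5, a secreted phospholipase, read 0.04, 0.16, 0.01 and 0.07 against -2.05, -2.48 and -2.39 (2.38, SE 0.17, adjusted p = 9.84e-06). The second probes of Igf2bp3, Gpt and Pla2g5 differed by 1.49, 0.60 and 2.15. Those of Igf2bp3 and Gpt were well above background on every array compared, that of Pla2g5 on no B16-D array. Of the 30 genes named by the rule, 8 also passed under all 23: Crb2, Clu, Arhgap45, Cd72, Sigirr, Fabp3, Batf and Fkbp10. Over all 115 genes that number was 17.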

How the data were processed

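RNA of the melanoma lines was labelled with Cy3 and hybridised to 1-colour Agilent mouse arrays. The deposited values are spot intensities which, per the file headers, were read with Agilent Feature Extraction 10.7.3.1, and the processed signal is background-corrected by that software. The depth of an array is not a count, and the number of arrays limits the precision.

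From these files, log2 of the processed signal minus the 75th percentile of each array was computed over non-control spots, and spots of 1 probe were averaged. Each gene was read by its brightest probe, if well above background on 3 or more of the 16 melanoma arrays of the fit. A gene could thus enter through the other lines, and the called genes Gbp7 and Gm5622 were well above background on no array of B16-D-733 or B16-D in the fit. Genes were tested with limma 3.58.1 (lmFit and eBayes, R 4.3.3) on 16 melanoma arrays, with Benjamini-Hochberg adjustment over all genes tested and a threshold of 0.05. Other steps used Python 3.11.15. The procedure was tested on simulated data. Where no array of a line was well above background, "at least" folds were set against the lowest signal among probes well above background on each array, or the dim probe's own signal where higher. The other settings were another background correction (normexp with offset 50, on the median in place of the mean spot signal, which was not analysed here), quantile scaling, the deposited value table, other filters and probe rules, slide, title date or replicate number as a block, fewer arrays and the omission of single arrays.

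Genes named are the 15 largest changes in each direction among those past the threshold with arrays that did not overlap and a probe well above background on every array of one line, clones and predicted genes passed over, along with list members past the threshold and the extremes of each list described. The comparison, the members and the lists were chosen with earlier results of these data known. Promoters were taken from RefSeq (GRCm38.p6) for 82 of the 115 genes called.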

Additional observations from a re-analysis of the deposited data

Results flagged for a closer look

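1 of the 62 groups of values examined for a single array far from the others stood out, and chance alone gives about 1 in 20 such groups. For Lpar4, with B16-D replicate 2 included, that array read -1.61, while the other 3 B16-D arrays read -6.47, -7.05 and -7.36. The gap to its nearest neighbour was 0.845 of the whole range of the group, beyond Dixon's 95% critical value. It is the array on which 90.3% of the spots were well above background, and its part in the value was not tested.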

How the results depend on the processing

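The 115 genes called became 72 with normexp background correction, 51 when only the 7 arrays of the lines were fitted and, in a setting chosen after seeing the data, 22 when only their 8 arrays with B16-D replicate 2 were fitted. The genes called higher were 51 and 22 in the last 2 settings. The 16 called lower became 6 with normexp, 0 by limma with the 7 arrays (243 lower at an unadjusted p under 0.05), 10 with slide as a block, 8 with dated titles only and 0 by limma with the 8 arrays (285 lower at an unadjusted p under 0.05). Without single arrays the calls ranged from 86 to 135, from 76 to 121 higher and from 8 to 14 lower. None of the 30 named genes changed direction in these settings, which reuse the arrays on which the genes were chosen. Replicate numbers did not pair the arrays (correlations of deviations 0.33, -0.31 and 0.55), and with the replicate block 128 genes were called, 109 higher and 19 lower. Of the 30 named genes 20 passed with B16-D replicate 2, 21 with normexp and 26 with the slide block, and 18 of 29 with the 7 arrays alone. Genes not well above background in one line have only a bound on their fold.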
